A study of Mus musculus with 6 samples.

Results

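The genes described here are 33 members of the unfolded protein response and the integrated stress response, chosen by symbol from the names the array files give their probes. They were read by 44 of the 55681 probes that are not controls, 53 spots on each array, and 32 of the 33 genes were measured. The exception was Eif2ak3, which encodes the sensor kinase PERK. Its probe was not well above background in either channel on any array. The study compared mice lacking Bmi1, a Polycomb repressor needed by blood stem cells, with wild-type (WT) mice. Multipotent progenitors (MPPs) and hematopoietic stem cells (HSCs) were sorted from C57BL6 mice 2 to 3 months old. Each of 6 two-colour Agilent arrays, 3 for MPPs and 3 for HSCs, held RNA of 1 Bmi1 KO sample in Cy5 and RNA of 1 WT sample in Cy3. The 4 groups were therefore Bmi1 KO MPPs, WT MPPs, Bmi1 KO HSCs and WT HSCs, with 3 samples each. The labels state neither the deleted stretch of Bmi1 nor whether animals were pooled.

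Secreted and membrane proteins fold in the endoplasmic reticulum (ER). When unfolded chains build up there, the sensors IRE1 (Ern1), ATF6 and PERK start the unfolded protein response, which raises chaperones, disulfide isomerases and the machinery of ER-associated degradation (ERAD). PERK and GCN2 (Eif2ak4, activated through GCN1) phosphorylate the translation factor eIF2α, which lowers general translation and favours that of ATF4. ATF4 and its partner CHOP (Ddit3) then drive genes of amino acid supply and feedback, the integrated stress response (ISR). Blood stem cells are known for low protein synthesis and for sensitivity to protein misfolding. An expression array reads transcript abundance, and not cleavage of ATF6, splicing of Xbp1 or phosphorylation of eIF2α.

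The elements through which these pathways are known to act were looked for on both strands in the 250 bases before a start listed by RefSeq (assembly GRCm38.p6), which was the gene's outermost start for 25 of 30 windows. The table held windows for 29 of the 33 genes, and Hyou1, Manf, Atf6 and Derl1 were not among them. The ER stress element, CCAAT and CCACG with 9 free bases between them, known as a site of ATF6 with NF-Y, was in windows of 9 members and in 0.113% of all 32851 windows. The related ERSE-II, ATTGG and CCACG with 1 free base between them, was in the window of Herpud1 and in 0.0304% of windows. The stretches below are shown because the genes that carry the element are mostly the chaperones and ERAD genes described later. Each runs 5′ to 3′ on the strand of its gene with 20 bases on either side, and the capitals mark the element or its reverse complement.
Calr (chr8:84847055-84847113, minus strand): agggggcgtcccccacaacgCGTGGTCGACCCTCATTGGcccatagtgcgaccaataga
Canx (chr11:50325780-50325838, minus strand): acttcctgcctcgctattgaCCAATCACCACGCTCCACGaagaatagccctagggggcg
Creld2 (chr15:88819500-88819558, plus strand): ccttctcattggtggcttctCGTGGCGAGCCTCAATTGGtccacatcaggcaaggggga
Derl3 (chr10:75893222-75893280, plus strand): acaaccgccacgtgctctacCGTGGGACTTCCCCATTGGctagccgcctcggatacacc
Dnajc3 (chr14:118937807-118937865, plus strand): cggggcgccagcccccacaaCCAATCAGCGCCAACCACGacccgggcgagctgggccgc
Herpud1 (chr8:94386357-94386407, plus strand): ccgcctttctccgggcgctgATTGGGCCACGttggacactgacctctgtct
Hsp90b1 (chr10:86705618-86705676, minus strand): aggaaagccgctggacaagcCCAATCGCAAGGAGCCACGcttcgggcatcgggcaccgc
Hsp90b1 (chr10:86705513-86705571, minus strand): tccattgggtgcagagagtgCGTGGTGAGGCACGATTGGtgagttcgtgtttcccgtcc
Hspa5 (chr2:34772005-34772063, plus strand): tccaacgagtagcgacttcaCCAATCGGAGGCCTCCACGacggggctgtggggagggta
Pdia6 (chr12:17266471-17266529, plus strand): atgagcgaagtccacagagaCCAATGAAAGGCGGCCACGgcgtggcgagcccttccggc
Syvn1 (chr19:6046512-6046570, plus strand): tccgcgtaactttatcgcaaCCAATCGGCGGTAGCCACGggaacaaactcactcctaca

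The CCAAT-enhancer binding protein and ATF response element (CARE), searched as TGATGNAA, is known as a site of ATF4 with C/EBP proteins. It was in the windows of 4 members and in 3.45% of all windows. The element TGACGTGG, known as a site of XBP1, was in no member's window and in 0.563% of all windows. The 4 stretches with a CARE are shown because Nupr1, Chac1 and Asns belong to the ISR arm, and Herpud1 carries both kinds of element. Among the members' windows 0 pairs of matches overlapped. A match is a description of the letters only.
Asns (chr6:7693210-7693252, minus strand): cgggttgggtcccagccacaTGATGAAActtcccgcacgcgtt
Chac1 (chr2:119351029-119351076, plus strand): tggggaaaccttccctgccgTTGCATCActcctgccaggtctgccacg
Herpud1 (chr8:94386297-94386344, plus strand): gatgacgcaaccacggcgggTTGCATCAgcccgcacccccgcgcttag
Nupr1 (chr7:126625553-126625600, minus strand): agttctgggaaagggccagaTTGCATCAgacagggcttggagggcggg

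Values below are log2. A ratio is KO over WT on 1 array, after loess normalization. A level is the background-corrected signal of 1 channel, quantile-normalized over the 6 arrays within its dye. Levels are compared between MPPs and HSCs within a genotype and never between genotypes or probes. Each test is limma's, over all 29133 features, with Benjamini-Hochberg adjusted p and a threshold of 0.05. SE is the model's standard error, and SD is over 3 arrays. No array had the dyes exchanged, so that within a ratio genotype and dye cannot be told apart. A dye effect cancels in the comparison of MPPs with HSCs.

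Median spot signal was 379 to 581 in the KO channel and 124 to 206 in the WT channel, and of the members' spots 0 were saturated. Both Bmi1 probes gave KO signal well above background on all 6 arrays. The brighter had a ratio of 0.01 ± 0.62 in MPPs and -1.11 ± 1.14 in HSCs, and the other 0.53 ± 0.52 in MPPs and -0.06 ± 1.52 in HSCs (SD, n = 3 each). They were lower in KO on 4 and 2 of 6 arrays. The KO status is therefore taken from the labels. The population labels were checked against their markers. All 8 markers of MPPs and lymphoid priming were higher in MPPs in both genotypes, and of 12 HSC markers 9 were lower in MPPs in KO and 12 in WT. HSC replicate 3 stood apart in markers of other cells. Its mean level over 7 measured neutrophil granule genes (of 8 listed) was 12.32 in KO, where the MPP arrays had 12.46, 11.98 and 12.80 and the other HSC arrays 9.35 and 9.72. In WT it was 10.43, where the MPP arrays had 10.52, 10.02 and 11.64 and the other HSC arrays 8.03 and 7.42. Ltf was not above background in any group. The 8 B lineage markers had mean levels of 11.02 to 13.72 in KO MPPs and 8.24 to 9.0 in KO HSCs, against 7.87 to 8.46 in WT MPPs and 7.26 to 7.88 in WT HSCs. The part of these cells in the results below was not tested. In bulk RNA, fewer cells of a type and less RNA per cell cannot be told apart.

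Between MPPs and HSCs, the member with the smallest p in WT was Nupr1, a small stress-induced transcriptional regulator and known target of ATF4. In WT cells its level was 9.33, 9.51 and 9.27 in MPPs, against 13.63, 13.42 and 12.53 in HSCs. In KO cells it was 10.90, 10.03 and 10.49 in MPPs, against 14.32, 11.59 and 15.13 in HSCs. MPP and HSC arrays did not overlap in either genotype, and HSC replicate 2 was the lowest of the KO HSC arrays. Nupr1 fell by 3.82 (SE 0.34) in WT MPPs relative to WT HSCs, a 14.2-fold difference with an adjusted p of 0.0192. It was the 1 member of 32 that passed in WT, where 0.419% of features passed and 0.0584% passed as lower. In KO the difference was -3.20 (SE 0.88, adjusted p = 0.241), and -4.22 without HSC replicate 2, with an adjusted p of 0.0315. The WT call was lost, at a difference between -3.66 and -3.84, when HSC replicate 1, HSC replicate 2, MPP replicate 1 or MPP replicate 3 was left out (adjusted p from 0.0564 to 0.118). With the row of the slide as a block the value rests on MPP replicate 1 alone against the HSC arrays, and it was -3.86 (adjusted p = 0.302). The Nupr1 probe (A_51_P519251) lies on chromosome 7, 133766978 to 133767037, of mm9.

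The other regulators of transcription had smaller differences, none of which passed. Atf4 stood at -0.14 (SE 0.30) in KO and -0.38 (SE 0.61) in WT. A second Atf4 probe, well above background on every array, had mean differences of -0.86 in KO, with no overlap, and -0.27 in WT. Xbp1, the factor activated by IRE1, stood at -0.15 (SE 0.53) in KO and -0.78 (SE 0.71) in WT. Ddit3 had KO levels of 14.24, 14.57 and 14.71 in MPPs, against 14.76, 15.14 and 14.74 in HSCs. The arrays did not overlap, by a narrow margin, and the difference was -0.37 (SE 0.26, adjusted p = 0.582). In WT it was -0.11 (SE 0.53). All 4 regulators thus had negative values in both genotypes, where 41.5% of all features did.

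Of the 4 ISR targets, 3 were lower in MPPs in both genotypes without passing the test, where 41.5% of all features had negative values in both. Ppp1r15a encodes GADD34, which directs a phosphatase to eIF2α. Its level was 10.90, 11.26 and 11.41 in KO MPPs, against 12.09, 11.71 and 11.42 in KO HSCs. In WT it was 9.79, 9.86 and 9.74 in MPPs, against 10.33, 10.41 and 10.95 in HSCs. Ppp1r15a and Nupr1 were the 2 members lower in MPPs with no overlap in either genotype, which held for 3.53% of features. Its differences were -0.56 (SE 0.29, adjusted p = 0.484) in KO and -0.76 (SE 0.26, adjusted p = 0.292) in WT. Trib3, a pseudokinase that restrains ATF4 and CHOP, had KO levels of 8.80, 9.14 and 10.02 in MPPs, against 9.77, 9.35 and 10.73 in HSCs, which overlap. Its WT levels of 7.30, 7.22 and 7.09 in MPPs lay below the 7.70, 8.47 and 9.32 in HSCs. The differences were -0.63 (SE 0.48) in KO and -1.29 (SE 0.43, adjusted p = 0.285) in WT. Chac1, which degrades glutathione, was well above background on 1 KO MPP array, 0 WT MPP arrays, 2 KO HSC arrays and 3 WT HSC arrays. Its KO levels of 6.77, 6.49 and 6.44 in MPPs overlapped the 6.79, 7.34 and 6.57 in HSCs, with a mean difference of -0.33. Chac1 was at least 1.18-fold lower in WT MPPs than in WT HSCs, a bound taken from the lowest signal among probes well above background. Asns, asparagine synthetase, stood at 0.02 (SE 0.26) in KO and 0.30 (SE 0.39) in WT.

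**Figure D1:**
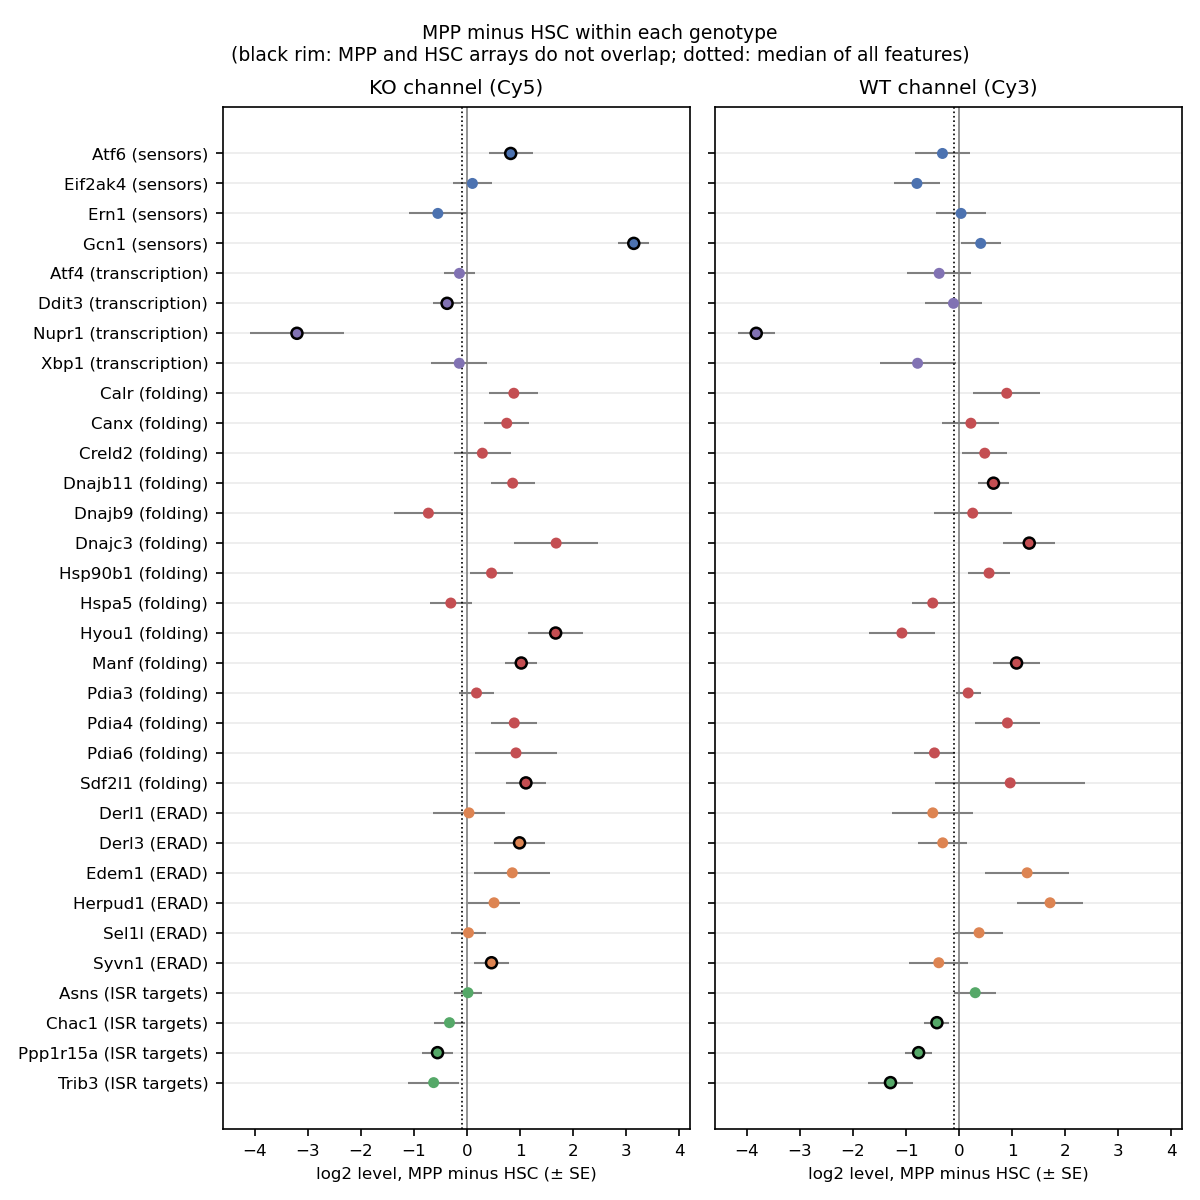
MPP minus HSC difference of the log2 level (x axis, with the model's SE) for each of the 32 measured genes, in KO at left and WT at right, coloured by role. Nupr1 lies at -3.20 and -3.82, Gcn1 at 3.14 and 0.41, and most folding genes lie to the right of 0 in both panels.

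The ER folding genes mostly lay on the other side. Of 14, 12 were higher in KO MPPs and 11 in WT MPPs than in the HSCs of the same genotype, with median differences of 0.87 and 0.52, against -0.09 over all features in both. None of the 14 passed the test in either genotype. Manf, a secreted factor retained in the ER, was the 1 member that was higher in MPPs with no overlap in both genotypes, which held for 2.69% of features. It had 13.26, 13.87 and 13.35 in KO MPPs, against 12.79, 12.09 and 12.53 in KO HSCs. In WT it had 12.10, 11.45 and 12.10 in MPPs, against 9.93, 11.04 and 11.44 in HSCs, where the highest HSC array lay just below the lowest MPP array. The differences were 1.02 (SE 0.30, adjusted p = 0.278) and 1.08 (SE 0.45, adjusted p = 0.332).

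Dnajc3, an ER co-chaperone also known as an inhibitor of eIF2α kinases, showed how much HSC replicate 3 mattered. Its KO level was 11.66, 11.58 and 11.84 in MPPs, against 9.24, 8.84 and 11.95 in HSCs. Only HSC replicate 3 reached the MPP arrays. The KO difference was 1.68 (SE 0.79), and without HSC replicate 3 it was 2.63 with an adjusted p of 0.0346. In WT, Dnajc3 had 10.36, 10.75 and 10.64 in MPPs, against 10.23, 8.36 and 9.20 in HSCs, which did not overlap. That difference was 1.32 (SE 0.49, adjusted p = 0.309). Dnajb11, another J-domain co-chaperone of BiP, had WT levels of 12.42, 12.14 and 12.59 in MPPs, against 12.11, 11.41 and 11.68 in HSCs. It stood at 0.86 (SE 0.42) in KO and 0.65 (SE 0.28) in WT.

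The mean level of the 14 folding genes followed the same array. In KO it was 12.92, 12.60 and 13.04 in MPPs, against 11.79, 11.93 and 12.76 in HSCs. In WT it was 11.11, 10.91 and 11.45 in MPPs, against 10.65, 10.15 and 11.49 in HSCs. HSC replicate 3, whose granule genes were near those of MPPs, was also the HSC array nearest to or above MPPs here. The median difference of the folding genes was 1.16 in KO and 0.77 in WT without HSC replicate 3, and 0.50 in KO and 0.16 in WT without HSC replicate 2. The mean level of markers of plasma cells, which are rich in ER folding proteins, also separated the populations. Single markers went both ways. The mean level of the 8 markers was 10.40 to 10.82 in KO MPPs, against 9.38 to 9.90 in KO HSCs, and 8.86 to 9.53 in WT MPPs, against 8.30 to 8.63 in WT HSCs. All 8 were above background in each group, 5 were higher in KO MPPs and 4 in WT MPPs. Jchain, the joining chain of secreted immunoglobulins, was 22.5-fold higher in KO MPPs (adjusted p = 0.0311) and 39.2-fold in WT MPPs (adjusted p = 0.0640), and Sdc1 4.77-fold and 4.29-fold (adjusted p = 0.197 and 0.253). On the other side, Tnfrsf13b was 2.22-fold and Cd28 2.48-fold lower in WT MPPs with no overlap (adjusted p = 0.260 and 0.311). The part of plasma cells in the levels of the folding genes was not tested.

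Sdf2l1, which keeps client proteins soluble in the ER, had 13.09, 13.12 and 12.77 in KO MPPs, against 11.40, 11.60 and 12.65 in KO HSCs. These did not overlap, and the difference was 1.11 (SE 0.38, adjusted p = 0.336). In WT its arrays ran from 9.74 to 12.58 in MPPs and from 7.37 to 12.64 in HSCs. The calnexin cycle genes Calr and Canx stood at 0.88 (SE 0.46) and 0.75 (SE 0.42) in KO, and at 0.90 (SE 0.63) and 0.22 (SE 0.54) in WT. The disulfide isomerases Pdia3 and Pdia4 stood at 0.18 (SE 0.33) and 0.89 (SE 0.44) in KO, and at 0.17 (SE 0.23) and 0.91 (SE 0.61) in WT. Hsp90b1, which encodes the chaperone GRP94 and whose window carries 2 ER stress elements, stood at 0.46 (SE 0.40) in KO and 0.56 (SE 0.39) in WT. Creld2 stood at 0.29 (SE 0.53) and 0.48 (SE 0.43). Hspa5, the gene of the chaperone BiP and the usual marker of ER stress, did not share this sign, with -0.30 (SE 0.39) in KO and -0.50 (SE 0.39) in WT. By the brightest probe, Dnajb9, a co-chaperone known as a target of XBP1, and Pdia6 differed in sign between the genotypes. In KO they stood at -0.73 (SE 0.64) and 0.92 (SE 0.78), and in WT at 0.26 (SE 0.74) and -0.47 (SE 0.39). Their second probes kept the same sign in both genotypes, at -0.26 and 0.85 in KO and at -0.11 and 0.22 in WT.

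Among the 6 ERAD genes, by the brightest probe, all were positive in KO (median 0.49) and 3 in WT (median 0.03). Over all features 43% were positive in KO and 43.6% in WT, and none of the 6 genes passed. Herpud1, a membrane scaffold of ERAD, had WT levels of 9.19, 10.697 and 10.79 in MPPs, against 7.68, 9.47 and 8.39 in HSCs, which overlap in 1 array each. It stood at 0.51 (SE 0.49) in KO and 1.71 (SE 0.62, adjusted p = 0.306) in WT. Edem1, which hands over misfolded glycoproteins, stood at 0.85 (SE 0.72) and 1.28 (SE 0.79). Derl3 and the ubiquitin ligase Syvn1 were higher in KO MPPs with no overlap, at 0.99 (SE 0.48) and 0.46 (SE 0.33), and stood at -0.31 (SE 0.47) and -0.38 (SE 0.56) in WT. Sel1l, the partner of Syvn1, stood at 0.03 and 0.37, and Derl1 at 0.04 and -0.50. A second Derl1 probe had the opposite signs, with mean differences of -0.16 in KO and 1.52 in WT. That probe was well above background on 1 of 3 WT HSC arrays.

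**Figure D2:**
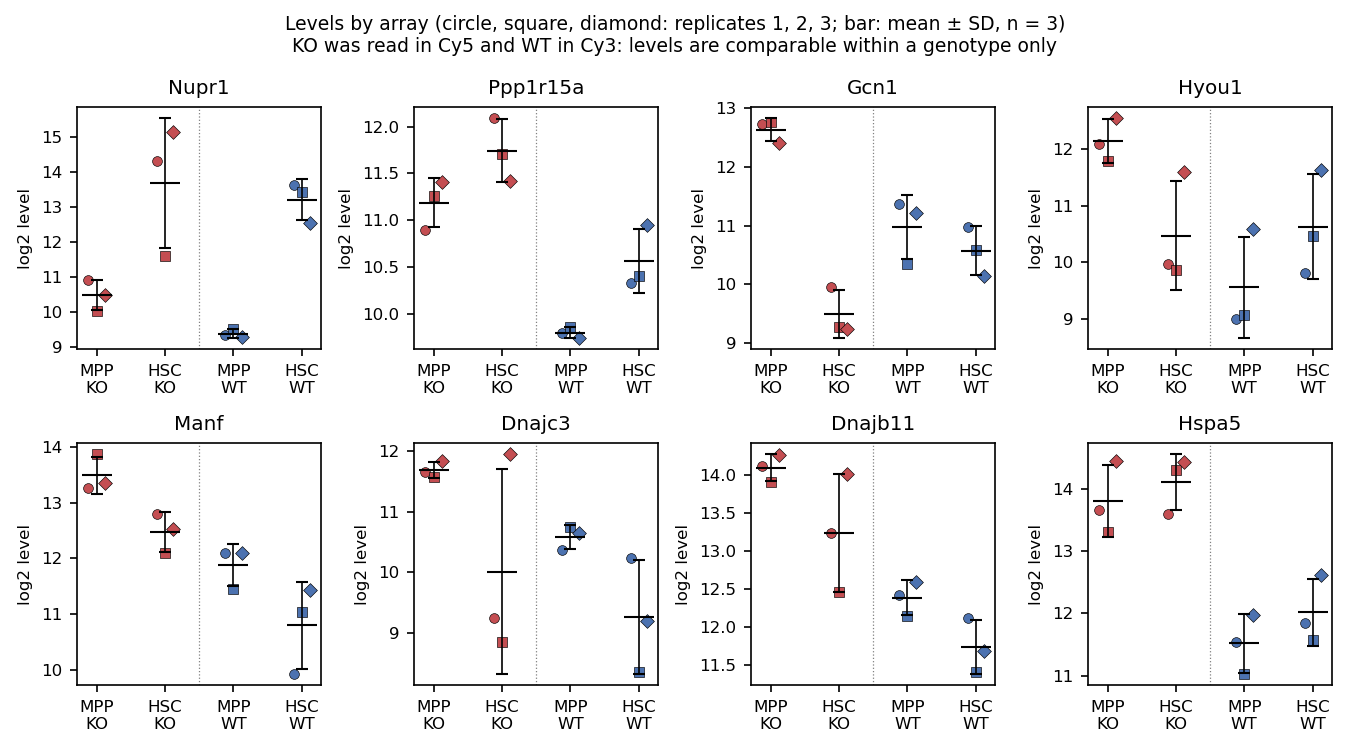
Log2 level of 8 genes on each array (y axis), by group on the x axis. Points are replicates 1 to 3, and bars show the mean and SD. Nupr1 and Ppp1r15a lie lower and Manf higher in MPPs in both genotypes, and Gcn1 separates MPPs from HSCs in KO.

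Gcn1 was the 1 member that passed in KO, where 0.529% of features passed and 0.422% passed as higher. Its product activates GCN2 on stalled ribosomes. The KO level was 12.73, 12.77 and 12.41 in MPPs, against 9.96, 9.27 and 9.24 in HSCs. The WT level was 11.37, 10.35 and 11.21 in MPPs, against 10.98, 10.59 and 10.14 in HSCs. The KO groups lay far apart and the WT groups overlapped. Gcn1 rose by 3.14 (SE 0.29, adjusted p = 0.0116) in KO MPPs relative to KO HSCs, and the WT difference was 0.41 (SE 0.38, adjusted p = 0.627). Without any 1 of the MPP arrays the KO difference was 3.05 to 3.25 and the adjusted p 0.0581 to 0.0708, and with the slide row as a block, which again leaves MPP replicate 1 alone, it was 3.24 (adjusted p = 0.206).

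A second Gcn1 probe gave the same direction at a smaller size. Its KO level was 9.79, 9.64 and 9.0 in MPPs, against 8.71, 7.83 and 7.88 in HSCs, a difference of 1.34. The 2 probes (A_55_P2038640 and A_55_P2169714) lie on chromosome 5 of mm9 at 116072278 to 116072337 and 116072604 to 116072663. With the probes averaged the KO difference was 2.24 (adjusted p = 0.0465).

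Of the remaining sensors, Atf6 was higher in KO MPPs with no overlap, at 10.81, 9.46 and 9.47, against 9.22, 8.85 and 9.20 in KO HSCs. That difference was 0.82 (SE 0.42), and it was -0.31 (SE 0.53) in WT. Eif2ak4 stood at 0.10 (SE 0.36) in KO and -0.80 (SE 0.43) in WT, and Ern1 at -0.55 (SE 0.55) and 0.04 (SE 0.46). The Ern1 values are those of its brightest probe. Its other probes had mean differences of -1.23, -0.73 and -0.23 in KO, and of -0.88, -0.93 and -0.82 in WT. Over all members 22 of 32 were higher in KO MPPs (median 0.38; 43% of features) and 17 in WT MPPs (median 0.10; 43.6% of features). Without HSC replicate 2 the WT median was -0.14. Without overlap between MPP and HSC arrays, 7 members were higher (8.64% of features) and 3 lower (11.1%) in KO MPPs, and 3 higher (8.24%) and 4 lower (13.8%) in WT MPPs. At unadjusted p under 0.05 there were 5 members in each, against 12.1% of features in KO and 15.2% in WT. There were 11 in KO without HSC replicate 3, and 2 in WT without MPP replicate 1 or 2.

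Wider lists of the same pathways gave context. Of 62 measured other genes of the secretory pathway and unfolded protein response, 43 were higher in KO MPPs (median 0.21) and 39 in WT MPPs (median 0.30), and 0 passed. At unadjusted p under 0.05, 7 were higher and 0 lower in KO, and 10 higher and 4 lower in WT. Over all features the shares were 6.54% higher and 5.54% lower in KO, and 6.76% higher and 8.41% lower in WT. Erp29, an ER chaperone, stood at 1.45 (SE 0.34) in KO and 1.33 (SE 0.33) in WT. The coat protein gene Sec31a stood at -1.20 (SE 0.27) in WT. Of 50 measured other genes of eIF2 control and the ISR, 30 were higher in KO MPPs (median 0.17) and 31 in WT MPPs (median 0.60). At unadjusted p under 0.05, 5 were higher and 1 lower in KO, and 10 higher and 2 lower in WT, beside the same shares over all features. Without overlap, 14 were higher (8.24% of features) and 2 lower (13.8%) in WT, and 7 higher (8.64%) and 1 lower (11.1%) in KO. Slc7a5, the light chain of a leucine transporter, rose by 2.23 (SE 0.28, adjusted p = 0.0347) in KO MPPs and was the 1 gene of this list that passed. Vldlr, a lipoprotein receptor, stood at 2.92 (SE 0.40, adjusted p = 0.0554) in WT. Gdf15, a secreted stress factor, stood at -0.98 (SE 0.26) in WT.

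**Figure D3:**
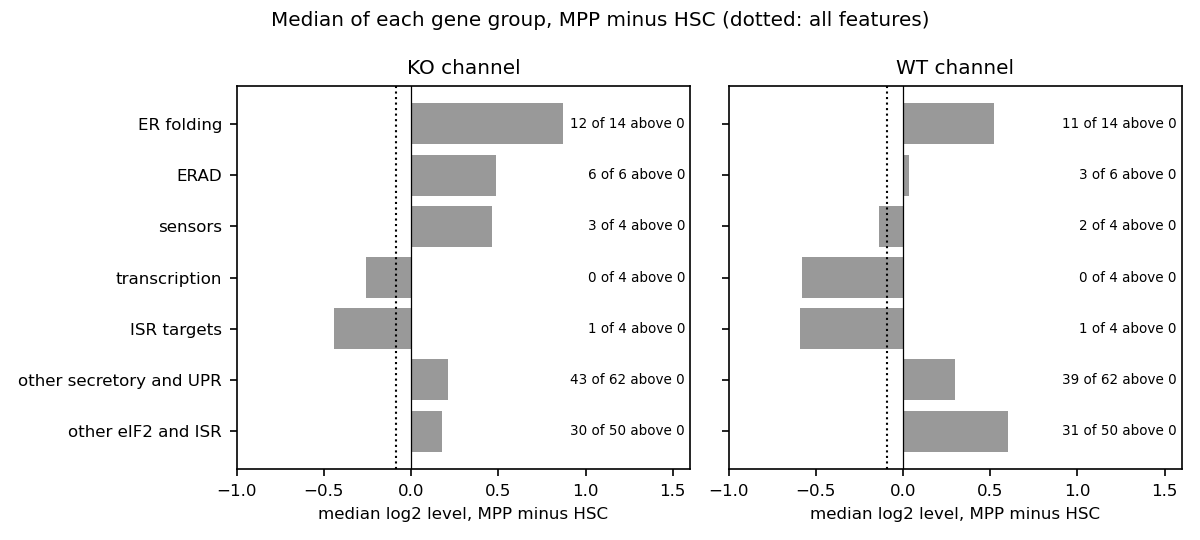
Median MPP minus HSC difference of the log2 level (x axis) for the 5 roles and the 2 wider lists, in KO at left and WT at right, with the count of genes above 0. The folding genes have medians of 0.87 and 0.52, and the ISR targets -0.44 and -0.59.

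Loss of Bmi1 moved no member past the test in either population. In MPPs 0 of 32 members and 0% of features passed (smallest adjusted p over all features 0.595), and in HSCs 0 members and 0% of features (0.570). At unadjusted p under 0.05 there were 2 members in MPPs, both higher in KO, against 5.11% of features in either direction and 2.49% higher. In HSCs there were 4, all lower in KO, against 7.4% of features in either direction and 3.44% lower. There were 7 without HSC replicate 3, and 2 without HSC replicate 2 or any 1 MPP array, and in MPPs there was 1 without MPP replicate 2 or 3. The ratio had 1 sign on 3 of 3 arrays for 8 members in MPPs (29% of features) and 9 in HSCs (26.9% of features). Medians over the members' mean ratios were 0.13 in MPPs and 0.12 in HSCs, against 0.01 and 0.00 over all features. Taken array by array, the member median lay below 0 for every HSC replicate (-0.17, -0.02, -0.06). Each also lay below the median over all features of its array. MPP replicates 1 and 2 stood above 0 (0.23, 0.10), and MPP replicate 3 below it (-0.09). The positive HSC value therefore describes no single HSC array. Without HSC replicate 1 or HSC replicate 2 the HSC median of the mean ratios was -0.16 or -0.21.

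Hspa5 was higher in KO on 6 of 6 arrays, the 1 member of which this held, against 3.27% of features. The MPP arrays gave ratios of 0.68, 0.80 and 0.84, close together, and the HSC arrays 0.24, 1.16 and 0.18. The mean was 0.77 (SE 0.27, adjusted p = 0.965) in MPPs and 0.53 (SE 0.27, adjusted p = 0.687) in HSCs. Over both populations it was 0.65 (SE 0.19, unadjusted p = 0.0135, adjusted p = 0.567), and 2 members, Hspa5 and Gcn1, had an unadjusted p under 0.05 there, against 8.37% of features. There were 5 without HSC replicate 1, 7 without HSC replicate 3 and 11 with median centring in place of loess. After adjustment 0 members and 0% of features passed. The 5 measured cytosolic heat shock genes (of 6 listed) were Hspa1a, Hsph1, Dnajb1, Hspa8 and Hsp90aa1. They had array medians of 0.73, 0.58 and 1.17 in MPPs and -0.17, 1.21 and 0.16 in HSCs. The 10 immediate early genes, which are known to respond to cell handling, had array medians of 1.38, 1.15 and 0.24 in MPPs, against 0.72, 1.96 and -0.33 in HSCs, and 9 of 10 had a positive mean in each population. The part of either list in the Hspa5 ratio was not tested.

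Hyou1, the ER chaperone GRP170 that exchanges nucleotide on BiP, had opposite signs in the populations. The ratio was 1.69, 1.43 and 0.57 on the MPP arrays, against -1.03, -1.90 and -1.38 on the HSC arrays. All MPP arrays were above 0 and all HSC arrays below it, which held for 0.827% of features. The means were 1.23 (SE 0.31, adjusted p = 0.965) in MPPs and -1.44 (SE 0.31, adjusted p = 0.654) in HSCs. The difference between the populations was 2.67 (SE 0.44, unadjusted p = 7.3e-04, adjusted p = 0.965). By level, Hyou1 was 12.09, 11.79 and 12.55 in KO MPPs, against 9.96, 9.86 and 11.59 in KO HSCs, a difference of 1.67 (SE 0.51, adjusted p = 0.296). In WT it was 9.0, 9.07 and 10.59 in MPPs, against 9.80, 10.47 and 11.63 in HSCs, with -1.08 (SE 0.63).

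Gcn1 had the lowest mean ratio of the members in HSCs, with 0.00, 1.04 and -0.29 on the MPP arrays, against -2.03, -2.63 and -2.23 on the HSC arrays. Its MPP mean was 0.25 and its HSC mean -2.30 (SE 0.32, unadjusted p = 2.7e-04, adjusted p = 0.654). The second probe gave 0.65, 0.17 and -1.32 in MPPs, against -0.31, -1.37 and -0.90 in HSCs. The difference between the populations was 2.54 (SE 0.45, adjusted p = 0.965). The KO effects of MPPs and HSCs did not overlap for 3 members, Gcn1, Hyou1 and Chac1, all higher in MPPs (3.81% of features, and 8.1% in either direction). Chac1 was not well above background on any WT MPP array, so that its MPP ratio has no measured WT level. At unadjusted p under 0.05 there were 2, both higher in MPPs, against 4.04% of features in either direction and 1.68% higher (4 without HSC replicate 3 or MPP replicate 1), and 0 members and 0% of features passed.

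**Figure D4:**
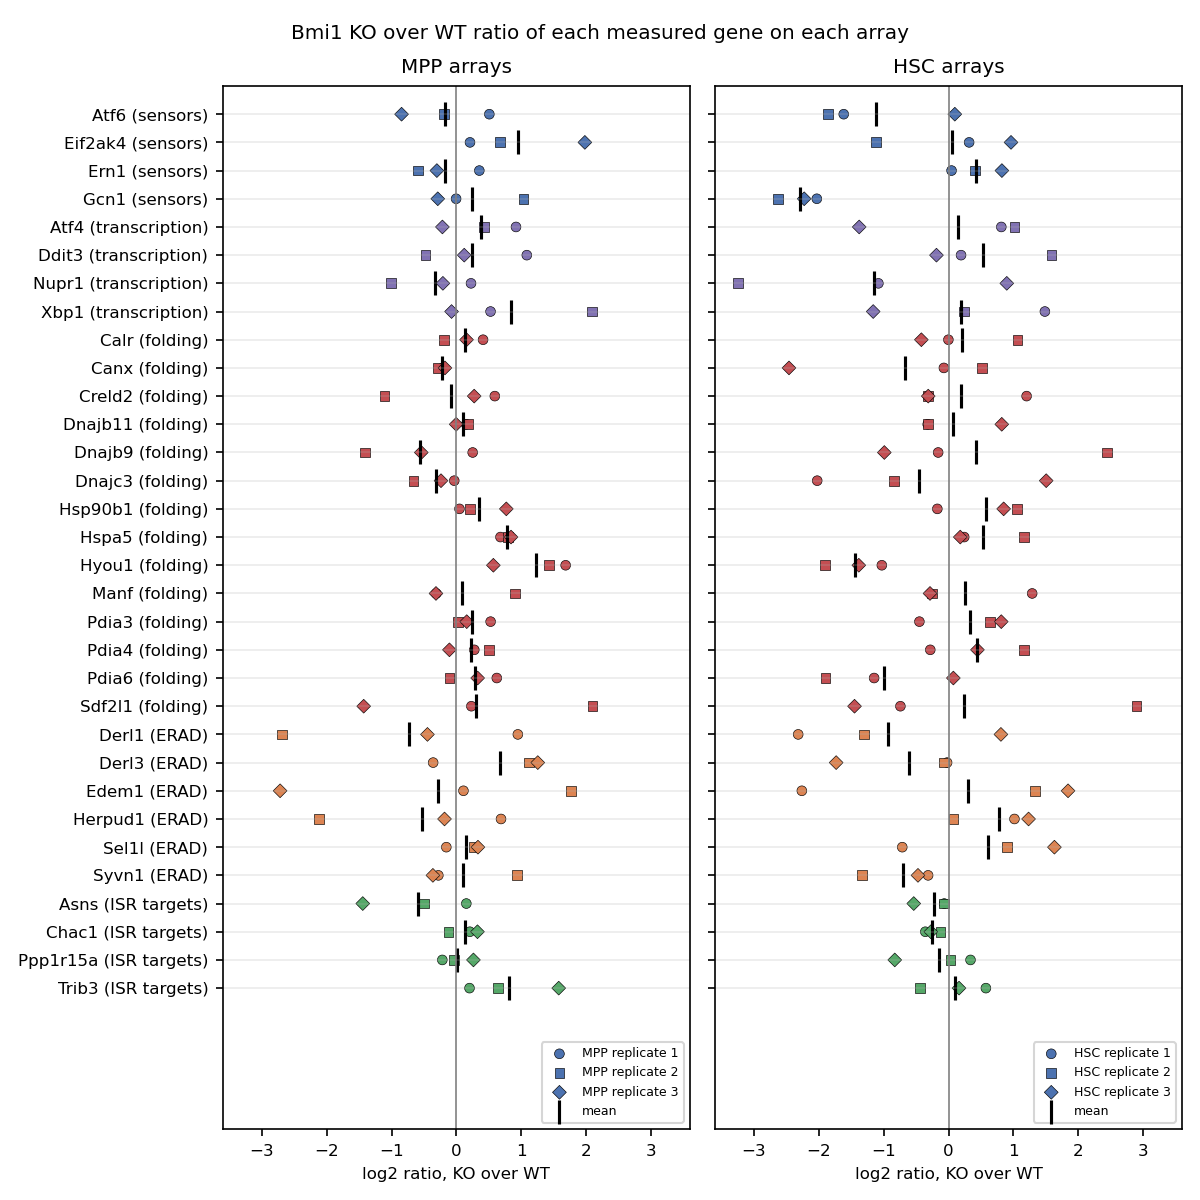
Log2 ratio of KO over WT (x axis) of the 32 measured genes on each MPP array at left and each HSC array at right. Points are replicates, coloured by role, and the bar is the mean. Hspa5 lies right of 0 on 6 arrays, and Gcn1 and Hyou1 lie left of 0 on the 3 HSC arrays.

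The other members with an unadjusted p under 0.05 were Pdia6 and Atf6 in HSCs. The isomerase gene Pdia6 had -1.15, -1.90 and 0.07 in HSCs, and its second probe had the opposite sign on average. Atf6 had -1.62, -1.86 and 0.10. In both, HSC replicate 3 differed from the other arrays. The means were -0.99 (SE 0.40) and -1.12 (SE 0.46), both with an adjusted p of 0.664. On the higher side in HSCs stood Hsp90b1 with -0.17, 1.06 and 0.85, and Ern1 with 0.05, 0.41 and 0.82. Their means were 0.58 (SE 0.32) and 0.43 (SE 0.29). Ern1 turned to -0.13 when its 4 probes were averaged.

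In MPPs, Trib3 was higher on 3 of 3 arrays, with 0.20, 0.64 and 1.58 and a mean of 0.81 (SE 0.35, adjusted p = 0.965). On the lower side stood Asns with 0.15, -0.50 and -1.44, Herpud1 with 0.69, -2.12 and -0.18, and Derl1 with 0.95, -2.69 and -0.45. These spread over both signs, and for Herpud1 and the brightest Derl1 probe MPP replicate 2 set the sign. The means of Asns, Herpud1 and Derl1 were -0.60 (SE 0.34), -0.54 (SE 0.54) and -0.73 (SE 0.81). Without MPP replicate 2 Herpud1 and Derl1 both stood at 0.25. The second Derl1 probe had 0.22, 0.80 and -2.79 on the MPP arrays, where replicate 2 was the highest. Other members differed widely between arrays. Sdf2l1 had ratios of 0.23, 2.10 and -1.43 on the MPP arrays, against -0.74, 2.90 and -1.45 on the HSC arrays, so that replicate 2 was high and replicate 3 low in both populations. Edem1 had 0.11, 1.77 and -2.72 on the MPP arrays, against -2.26, 1.33 and 1.84 on the HSC arrays. Nupr1 had KO over WT ratios of 0.23, -1.01 and -0.21 on the MPP arrays, against -1.08, -3.24 and 0.90 on the HSC arrays, which overlap. The B lineage markers, with array medians of 2.01, 4.31 and 4.17 in MPPs, were also high in KO, and their part was not tested.

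In the wider lists 0 genes passed in either KO comparison. Ddit4, an mTORC1 inhibitor and stress-response gene, stood at -2.36 (SE 0.53) in MPPs. In HSCs Lman1, a cargo receptor between ER and Golgi, stood at -2.91 (SE 0.56), Vldlr at 2.27 (SE 0.57) and Gpt2, an alanine aminotransferase, at 1.06 (SE 0.22). The adjusted p was 0.654 or more for each.

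For 8 members with several probes the probes often differed. In HSCs the brighter Derl1 probe averaged -0.94 and the other 1.27, and the Pdia6 probes -0.99 and 0.25. In MPPs the brightest Eif2ak4 probe averaged 0.96, and the others -0.07 and 0.09. The brightest probe stands for the gene above.

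**Figure D5:**
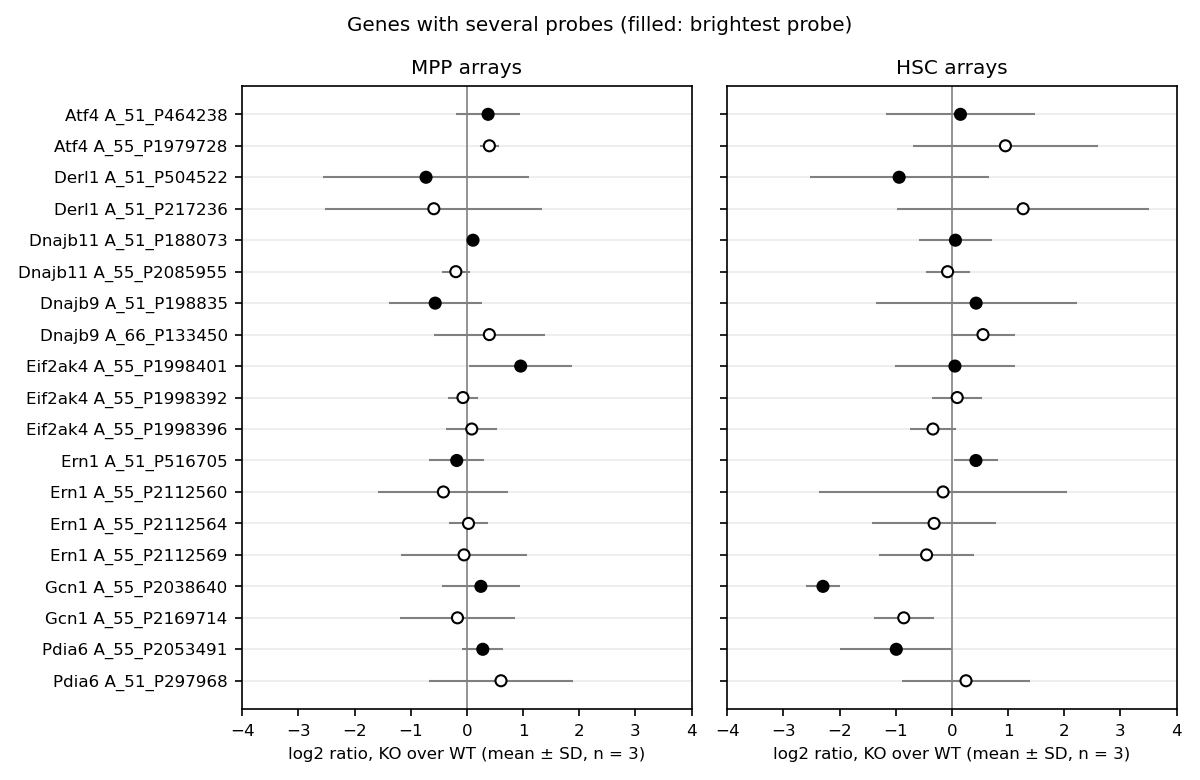
Mean log2 ratio of KO over WT with its SD over 3 arrays (x axis) for each kept probe of the 8 genes with several, in MPPs at left and HSCs at right. Filled points are the brightest probe. Both Gcn1 probes lie below 0 in HSCs, and the Derl1 and Pdia6 probes lie on both sides of 0 there.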

How the data were processed

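Per the file headers, the deposited files hold spot and local background intensity of both dyes, extracted by software of version 10.7.3.1 (Agilent Feature Extraction, given as 8.5.1.1 in the submitters' processing notes). The deposited log10 ratio was processed red over processed green (KO over WT), and the series' value table held the same values (largest difference 0, median 0 in each column). Other deposited columns were 0 or 1 marks of spots above background, saturated or outlying. From the deposited mean signals, log2 ratios were made with normexp (offset 50) and within-array loess in limma 3.58.1 under R 4.3.3. The pipeline was tested on simulated data. Control and marked spots were left out, 2 of the members' spots among them. A probe was kept if well above background on all 3 arrays of at least 1 group with a value on all 6 (44639 probes), and the brightest probe of a name was taken (29133 features). limma (lmFit, eBayes) fitted 1 mean per population to all 6 arrays. RefSeq accessions gave current symbols to 27235 probes. The labels call the replicates biological. All arrays shared 1 slide and 1 scan. HSC replicates 1 to 3 and MPP replicate 1 lay in slide row 1, MPP replicates 2 and 3 in row 2, so that with row as a block MPP replicate 1 alone stands for MPPs. With 3 arrays against 3, the smallest two-sided permutation p is 0.1, and the number of arrays limits the precision. Members, roles, lists and markers were chosen with earlier results of these data known. Members told in full are those with the 3 smallest p per direction and those under 0.05, adjusted or not. The difference between the KO effects and the mean KO effect are exceptions. For these the Results name only members with an unadjusted p under 0.05 or with arrays that did not overlap. Of the wider lists, up to 3 per direction with the smallest p and no overlap, or 1 sign, could be named. Probe positions are the files' own (mm9), and exon or UTR position is not used here. The alternatives were the deposited processed signals, median centring, no filter, the mean over probes, the slide row or replicate number as a block, and leaving out each array.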

Additional observations from a re-analysis of the deposited data

Results flagged for a closer look

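The KO effect on Hyou1 had opposite directions in the 2 populations on every array. It was higher in KO on 3 of 3 MPP arrays and lower in KO on 3 of 3 HSC arrays. The difference was 2.67 (SE 0.44), and the limma test of that difference did not pass over all features (adjusted p = 0.965). Over the alternatives the difference ran from 2.43 to 3.12. Of all features, 549 (1.88%) showed opposite signs on all arrays in either direction, and 241 (0.827%) in the direction of Hyou1.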

How the results depend on the processing

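Median centring in place of loess moved the median of all features to 0.26 in MPPs and 0.29 in HSCs, and that of the members to 0.47 in MPPs, 0.48 in HSCs and 0.47 over both, where 303 features then passed for the mean effect and 0 members did. Without 1 array the HSC median ran from -0.21 to 0.12. For MPP against HSC in WT, 51 features passed with no filter and 0 with the slide row as a block, and 0 members passed with that block. Without 1 array 0 to 131 features and 0 to 1 members passed. In KO, 16 features and 0 members passed with the slide row as a block. Without 1 array 58 to 158 features and 0 to 2 members passed, and the median of the folding genes ran from 0.50 to 1.16. Same-numbered arrays correlated at -0.07 to 0.02 for ratios, 0.00 to 0.10 for KO levels and 0.04 to 0.16 for WT levels, not above 0.1 in every pair, so the numbers were not taken as pairs. By WT level all 3 arrays correlated best with their own number, by KO level 2 of 3 and by ratio 1 of 3, a hint from the data and not from the design. With the replicate block, 0 features and 0 members passed in WT and 37 features and 0 members in KO, and the difference of Hyou1 was 2.67. Over the alternatives up to 15 of 32 members turned sign in the KO effect in MPPs (the slide row as a block, where MPP replicate 1 stands alone), 7 in HSCs, 9 in the difference, 6 in the mean effect, and 6 in KO and 4 in WT for MPP against HSC. Members at unadjusted p under 0.05 numbered 1 to 4 in MPPs, 2 to 8 in HSCs, 2 to 4 for the difference, 1 to 11 for the mean effect, and 2 to 11 in KO and 1 to 9 in WT. Among the members with the 3 smallest p per direction or under 0.05, signs turned as follows. Ern1 turned in HSCs (-0.13, mean over probes). With the slide row as a block, Asns (0.15), Herpud1 (0.69) and Derl1 (0.95) turned in MPPs. Without MPP replicate 2, Herpud1 and Derl1 turned in MPPs (without 1 array, -1.15 to 0.25 and -1.57 to 0.25). The difference of Dnajb9 (main value -0.995), not described above, turned without HSC replicate 2 (without 1 array, -1.71 to 0.011). The causes were not tested. Of 2577 values under an alternative, 2466 were counted as unchanged. For a member this meant the same direction and the same side of the threshold. A turned sign also counted as unchanged where the member was outside the group just listed, did not pass and moved by less than the spread between replicates. Medians were unchanged if they moved by less than that spread, and counts if they stayed within a set fold range. The 2466 thus include members whose sign turned.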
